A study of Mus musculus with 9 samples.

Results

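Cd3e, Cd8a, Cd79a, Ncr1, Nkg7, Klrb1c, Gzma, Prf1 and Ifng mark T cells, B cells and natural killer (NK) cells or their weapons, and were examined here in infarcted hearts of SCID mice. They are 9 of the 19505 genes with a symbol on the arrays, and each was taken by its annotated symbol, with the brightest row kept where a gene had several. The hearts came from female SCID mice 80 to 100 days old in which the left anterior descending (LAD) coronary artery had been ligated, in all groups alike, to cause an infarct. The control group received saline, another received cardiomyocytes made from induced pluripotent stem cells (iCM) and the last received exosomes, the small vesicles that cells shed, which had been precipitated from those cardiomyocytes (iCM-Ex). RNA from the peri-infarct region, with the infarct core and the remote zones removed, was measured 4 weeks later on Clariom S arrays. Each group had 3 arrays, labelled as biological replicates, and no heart without an infarct was analysed here. The sources used here do not give the mutation of the strain, the species of the injected cells or the dose.

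SCID mice cannot complete V(D)J recombination, the cutting and joining of gene segments that builds antigen receptors, so T and B cell development stops early. NK cells need no such recombination and can develop in SCID mice. They recognise stressed or foreign cells through germline-encoded receptors such as NKp46 (Ncr1), and kill by releasing granules. NK1.1 (Klrb1c) is another receptor on their surface. Perforin (Prf1) opens the target cell's membrane, granzymes such as granzyme A (Gzma) enter and cut proteins inside it, Nkg7 sits in the granule membrane, and interferon gamma (Ifng) activates macrophages.

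The promoters of Gzma and Nkg7 are shown because they are the 2 members whose arrays separated the groups most widely. The sequences are the 250 bases upstream of the annotated start in RefSeq on build GRCm38.p6, 5′ to 3′ on the gene's own strand. Gzma lies on the minus strand and its window is chr13:113100982-113101231. Nkg7 lies on the plus strand and its window is chr7:43436888-43437137. Capitals mark matches, on either strand, to 4 motifs of factors that act in lymphocytes.
Gzma: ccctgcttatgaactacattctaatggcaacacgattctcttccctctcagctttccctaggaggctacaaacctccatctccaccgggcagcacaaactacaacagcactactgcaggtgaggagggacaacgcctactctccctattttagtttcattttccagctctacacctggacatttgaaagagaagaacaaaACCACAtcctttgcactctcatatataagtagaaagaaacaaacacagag
Nkg7: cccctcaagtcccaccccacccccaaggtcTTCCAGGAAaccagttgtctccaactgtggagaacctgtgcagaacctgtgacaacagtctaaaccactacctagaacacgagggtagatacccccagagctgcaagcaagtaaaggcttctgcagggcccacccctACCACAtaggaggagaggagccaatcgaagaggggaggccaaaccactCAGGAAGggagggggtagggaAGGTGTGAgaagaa

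The motifs searched were TGTGGT for RUNX factors, AGGTGTGA for T-box factors such as T-bet, CAGGAAG for ETS factors and TTCNNNGAA for STAT factors. Of 27018 promoters of the same length, 14.2% held the RUNX letters, 1.14% the T-box letters, 10.5% the ETS letters and 7.18% the STAT letters. The Nkg7 window held all 4, with no overlap between them: STAT at 220 to 212 bases upstream of the start, RUNX at 83 to 78, ETS at 35 to 29 and T-box at 14 to 7. The Gzma window held the RUNX letters alone, at 50 to 45 bases upstream. All 9 members were found in the promoter table, and 8 held at least 1 match, the exception being Cd8a. A match describes letters only, and the arrays measured no binding.

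The dissected tissue carried the heart label in its RNA. Mean log2 signals of 10 cardiomyocyte markers were 16.05 to 18.00 on the 9 arrays, and all 10 lay above the median negative control on every array. Median signals of the negative control probe sets were 5.07 to 5.48 with saline, 5.11 to 5.56 with iCM and 4.76 to 4.95 with iCM-Ex. The gap between the medians of positive and negative controls was 3.44 ± 0.15 with saline, 2.94 ± 0.41 with iCM and 3.77 ± 0.21 with iCM-Ex (SD, n = 3), with no overlap between any pair of groups (two-sided exact permutation p = 0.1 each, the smallest that 3 arrays against 3 allow). The control gap thus moved with group, and fits that hold it as a covariate are given beside the results for Gzma and Nkg7. Because the gap did not overlap between groups, such fits cannot tell its effect from that of treatment. Of the 9 arrays, 3 stood apart from their groups. Lung epithelium markers (11 genes) averaged 11.93 on iCM array 1 and 8.88 on iCM-Ex array 3, against 4.60 to 6.25 on the other arrays. Fast skeletal muscle markers (10 genes) averaged 13.34 on iCM array 2, against 4.58 to 6.07 elsewhere, and adipocyte markers (8 genes) 10.15 there, against 5.67 to 7.13. Differences without these 3 arrays are given beside the results that rest on them. That setting leaves 1 iCM and 2 iCM-Ex arrays, and the lone iCM array is assumed to vary like the other groups. Over all 19505 genes 6, 0 and 0 then pass the threshold in the 3 comparisons, and 33, 5 and 0 pass with the control gap as a covariate, so a call lost in either setting says little and the differences are given instead.

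The 9 members gave signals in the range of the negative controls on every array. None of the 81 values exceeded the 95th percentile of that array's negative controls, which lay between 8.12 and 9.67, whereas 20.7% of the values of all genes did. Of the 81 values, 19 exceeded the median negative control, against 56.8% of the values of all genes. Olfactory receptor genes, 1091 in number and hardly used in heart, served as a further background, chosen after the data were seen. Their median signals, 3.70 to 4.00, lay below the median negative control, so they set a lower limit. Their 95th percentile was exceeded by 22 of the 81 member values and by 57.7% of the values of all genes. All Gzma values with iCM or iCM-Ex were among these, above 99.4% to 100% of the olfactory genes, against 81.4% to 98.6% with saline. Ncr1 reached 99.8% on iCM-Ex array 2, while Cd79a stayed at 4.95% to 40.2%. Low signals cannot be turned into absence of the cells, and in bulk tissue fewer cells of a type and less RNA per cell cannot be told apart.

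**Figure D1:**
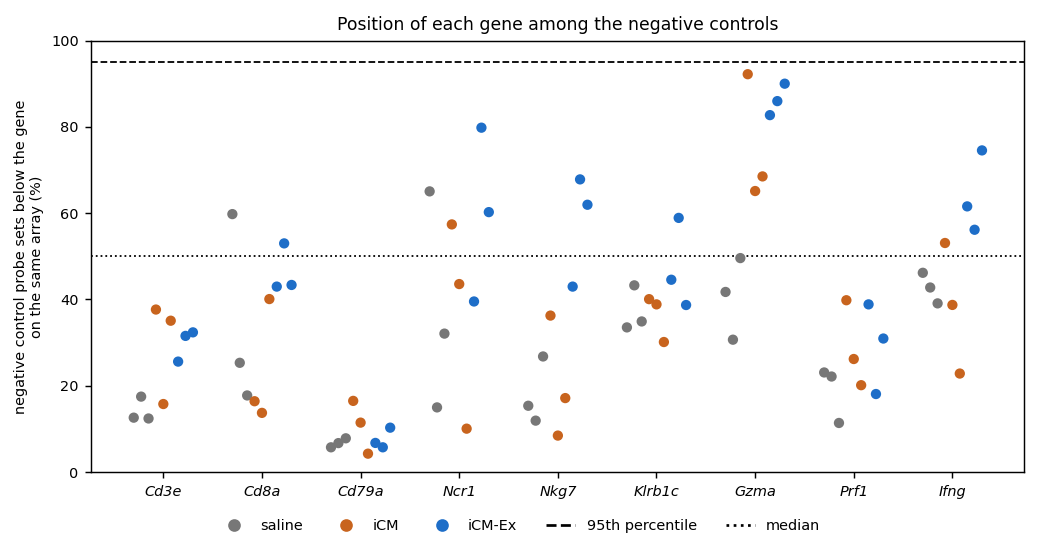
Percentage of negative control probe sets below each of the 9 members on each of the 9 arrays, grouped by treatment. No value reaches 95%, and the highest point is Gzma on iCM array 1, with 92.2%; the dashed line marks the 95th percentile and the dotted line the median.

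No member passed the adjusted threshold of 0.05 in any comparison (limma, Benjamini-Hochberg over 19505 genes), nor in the test for any difference among the groups, which 3.32% of all genes passed. Over all genes 3.67% passed for iCM against saline, 0.349% for iCM-Ex against saline and 1.07% for iCM-Ex against iCM. At an unadjusted p under 0.05 the members counted 1, 2 and 1 of 9, against 20.5%, 15.2% and 14.5% of all genes. For any difference the count was 2, against 21.8%. Arrays of the groups did not overlap, in either direction, for 1, 3 and 1 members, against 24%, 21.7% and 20.2% of all genes. The non-overlapping members all had the higher values in the group named first, which held for 13.8%, 12.2% and 10.2% of all genes. The 3 members in iCM-Ex against saline were Gzma, Nkg7 and Cd3e, and in the other comparisons 1 of 9 did so. Cd3e counted by a narrow margin, 4.063 against 4.057 at the nearest pair. With 9 members, counts this small are not read as an excess over all genes. The median difference of the 9 members was 0.05 for iCM against saline, where that of all genes was 0.08. It was 0.35 for iCM-Ex against saline, where all genes had 0.04, and 0.04 for iCM-Ex against iCM, where all genes had -0.04. All differences are on the log2 scale.

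**Figure D2:**
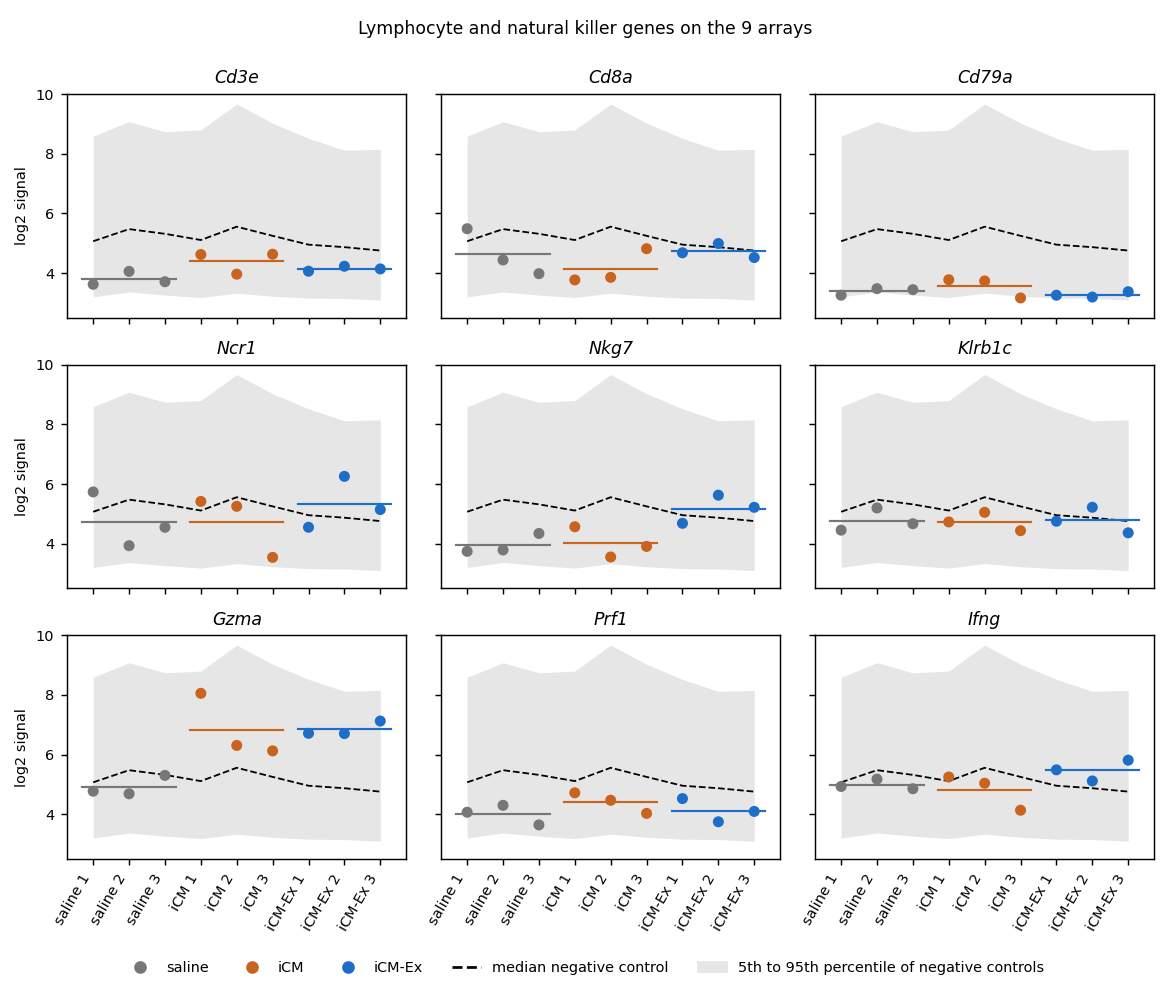
Log2 signal of the 9 members on each array, as points by group, with a line at the group mean. The grey band spans the 5th to 95th percentile of the negative controls and the dashed line is their median. Gzma is higher on all 6 iCM and iCM-Ex arrays than on any saline array, and Nkg7 is higher on the 3 iCM-Ex arrays than on the other 6.

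Cd3e encodes the epsilon chain of CD3, the signalling part of every T cell receptor. Its log2 signals were 3.62, 4.06 and 3.71 in saline, 4.62, 3.96 and 4.63 in iCM, and 4.06, 4.23 and 4.14 in iCM-Ex. The iCM-Ex arrays lay just above the saline arrays (4.063 against 4.057 at the nearest pair), while the iCM arrays overlapped both. Group means ran from 3.80 ± 0.23 in saline through 4.14 ± 0.083 in iCM-Ex to 4.41 ± 0.38 in iCM (SD, n = 3). The difference was 0.61 for iCM against saline (95% interval -0.014 to 1.23, limma adjusted p = 0.253) and 0.35 for iCM-Ex against saline (-0.28 to 0.97, adjusted p = 0.615). On no array did Cd3e exceed more than 37.7% of the negative controls.

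Cd8a encodes the coreceptor chain of cytotoxic T cells. It gave 5.49, 4.44 and 3.98 in saline, 3.77, 3.86 and 4.82 in iCM, and 4.68, 4.99 and 4.52 in iCM-Ex. The saline arrays spanned nearly the whole range, so all groups overlapped. Means were 4.64 ± 0.77, 4.15 ± 0.58 and 4.73 ± 0.24 (SD, n = 3), and the widest difference, 0.58 for iCM-Ex against iCM, had an adjusted p of 0.607 in limma.

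Cd79a, the signalling chain of the B cell receptor, stayed in the lowest part of the controls. Its signals were 3.26, 3.48 and 3.44 in saline, 3.78, 3.74 and 3.17 in iCM, and 3.26, 3.20 and 3.38 in iCM-Ex. Between 4.25% and 16.5% of the negative controls lay below it, and the groups overlapped. The differences against saline were 0.17 in iCM (limma adjusted p = 0.771) and -0.12 in iCM-Ex (adjusted p = 0.876).

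The NK cell receptors varied as much within groups as between them. Ncr1 gave 5.73, 3.93 and 4.55 in saline, 5.42, 5.25 and 3.54 in iCM, and 4.55, 6.26 and 5.14 in iCM-Ex. It reached above the median negative control on 4 of 9 arrays, spread over all groups, and the group SDs were 0.92, 1.04 and 0.87. The difference was 0.00 for iCM against saline (interval -1.41 to 1.40, limma adjusted p = 0.999) and 0.58 for iCM-Ex against saline (-0.83 to 1.98, adjusted p = 0.723). With intervals this wide, changes of more than 2-fold in either direction were not excluded for iCM.

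Klrb1c, the NK1.1 antigen, had nearly equal group means. Its signals were 4.45, 5.20 and 4.67 in saline, 4.73, 5.05 and 4.43 in iCM, and 4.75, 5.22 and 4.36 in iCM-Ex. The 3 means, 4.77, 4.74 and 4.78, differed by less than the SDs of 0.31 to 0.43. The interval for iCM against saline was -0.76 to 0.69 (limma adjusted p = 0.967).

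Gzma showed the widest difference of the members. Its signals were 4.77, 4.68 and 5.30 in saline, 8.05, 6.31 and 6.12 in iCM, and 6.71, 6.70 and 7.12 in iCM-Ex. Every iCM and every iCM-Ex array lay above every saline array, and the iCM and iCM-Ex arrays overlapped. Means were 4.92 ± 0.33 with saline, 6.83 ± 1.07 with iCM and 6.85 ± 0.24 with iCM-Ex (SD, n = 3). The difference from saline was 1.91 ± 0.47 (SE) in iCM, with a 95% interval of 0.86 to 2.96 and a limma adjusted p of 0.0540. In iCM-Ex it was 1.93 ± 0.47, with an interval of 0.88 to 2.98 and an adjusted p of 0.105. Neither passed the threshold. All 3 saline values lay below the median negative control, so these are differences in signal over background and no fold of RNA is given. The difference between iCM-Ex and iCM was 0.02 (-1.03 to 1.07, adjusted p = 0.994), so differences of up to 2-fold between these groups cannot be dismissed.

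Gzma lay in the lower part of the negative controls on saline arrays and in the upper part on the others. In saline 41.7%, 30.7% and 49.6% of the negative controls lay below it, in iCM 92.2%, 65.1% and 68.5%, and in iCM-Ex 82.7%, 86.0% and 90.0%. The call was close to the threshold and depended on the setting. For iCM against saline the adjusted p was 0.0499 after subtraction of each array's median gene, 0.0421 among genes above the median signal only, 0.0460 with limma's trended and robust variance, and 0.0471 without iCM array 3. For iCM-Ex against saline it was 0.0422 after subtraction of each array's median negative control, a scaling that also moved the median of all genes to 0.47. Gzma passed in these 5 fits alone. With single arrays left out its limma adjusted p ran from 0.0471 to 0.161 for iCM and from 0.0506 to 0.359 for iCM-Ex. With the control gap as a covariate the differences from saline were 2.38 in iCM and 1.62 in iCM-Ex.

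The highest Gzma value of the iCM group was on array 1 and that of iCM-Ex on array 3, the 2 arrays with lung markers. Without these and iCM array 2, the difference was 1.21 for iCM against saline, from 1 iCM array, and 1.79 for iCM-Ex against saline, and the remaining array values of 6.12, 6.71 and 6.70 were still above the highest saline value of 5.30. Neutrophil markers were set beside Gzma. The mean of 9 neutrophil genes was 4.35 to 5.18 with saline, 5.47 to 6.43 with iCM and 5.47 to 6.14 with iCM-Ex, and 1 of the 9, S100a9, a calcium-binding protein of neutrophils and monocytes, rose in iCM (3.20 ± 0.69, limma adjusted p = 0.0352). That call was lost without saline array 1 or 2, iCM array 2 or 3, or iCM-Ex array 3 (adjusted p 0.0543 to 0.0996), and the difference was 2.18 with the covariate and 2.71 without the 3 arrays. None of the 9 rose or fell in iCM-Ex against saline in limma (4 at an unadjusted p under 0.05, where all genes had 15.2%). Their part in the Gzma result was not tested.

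Prf1, which acts with granzymes, did not separate the groups. It gave 4.06, 4.30 and 3.64 in saline, 4.72, 4.47 and 4.03 in iCM, and 4.52, 3.74 and 4.09 in iCM-Ex. All 9 values lay below the median negative control. The differences from saline were 0.40 in iCM (interval -0.31 to 1.11, limma adjusted p = 0.516) and 0.12 in iCM-Ex (adjusted p = 0.897).

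Nkg7 was highest in iCM-Ex. Its signals were 3.74, 3.79 and 4.34 in saline, 4.57, 3.55 and 3.91 in iCM, and 4.68, 5.63 and 5.22 in iCM-Ex. The 3 iCM-Ex arrays lay above the other 6, and saline and iCM overlapped. Means were 3.96 ± 0.33, 4.01 ± 0.51 and 5.18 ± 0.47 (SD, n = 3). The difference was 1.22 ± 0.36 (SE) for iCM-Ex against saline, with an interval of 0.42 to 2.02 (limma adjusted p = 0.156). For iCM-Ex against iCM it was 1.17 ± 0.36, with an interval of 0.37 to 1.97 (adjusted p = 0.155). Only 2 of its 9 values, both in iCM-Ex, exceeded the median negative control, so no fold of RNA is given here either.

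Nkg7 was set beside background and leucocyte markers. Negative controls were lowest in iCM-Ex, and with the control gap as a covariate the difference was 0.13 for iCM-Ex against iCM and 0.80 for iCM-Ex against saline. The gap did not overlap between groups, so this fit cannot tell its effect from that of treatment. With each array's median negative control subtracted instead, the Nkg7 difference was 1.61 against iCM and 1.65 against saline. That scaling moved the median of all genes to 0.40 and 0.47. Markers of leucocytes of any kind (10 genes) averaged 7.47 to 10.43 with saline, 7.37 to 8.68 with iCM and 9.96 to 10.66 with iCM-Ex. Of the 10, none rose in iCM-Ex against saline in limma (4 at an unadjusted p under 0.05, where all genes had 15.2%). In iCM against saline 0 of the 10 were higher, with a median difference of -0.51 and 3 at an unadjusted limma p under 0.05 (all genes 20.5%). In iCM-Ex against iCM all 10 were higher, with a median difference of 2.34. There 9 had an unadjusted p under 0.05 (all genes 14.5%) and 9 had arrays without overlap (all genes 20.2%). Only Cd52, a surface protein of many leucocytes, passed the adjusted threshold (2.82 ± 0.51, limma adjusted p = 0.0386). That call was lost without saline array 2, iCM array 2 or 3, or iCM-Ex array 2 or 3 (adjusted p 0.0740 to 0.194). The Cd52 difference was 2.14 with the control gap as a covariate and 3.29 without the 3 arrays that stood apart. On iCM-Ex arrays 1, 2 and 3 the leucocyte means were 9.96, 10.66 and 10.19, and the Nkg7 signals 4.68, 5.63 and 5.22. Saline array 3, the highest saline array for both, had 10.43 and 4.34. The part of these cells in the Nkg7 result was not tested.

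Ifng gave 4.93, 5.18 and 4.85 in saline, 5.25, 5.04 and 4.13 in iCM, and 5.49, 5.11 and 5.81 in iCM-Ex. The iCM-Ex arrays overlapped both other groups through their second array, and all 3 exceeded the median negative control. Means were 4.99 ± 0.17, 4.81 ± 0.59 and 5.47 ± 0.35 (SD, n = 3). The difference was 0.66 for iCM-Ex against iCM (interval -0.096 to 1.43, limma adjusted p = 0.424) and 0.48 for iCM-Ex against saline (adjusted p = 0.553).

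**Figure D3:**
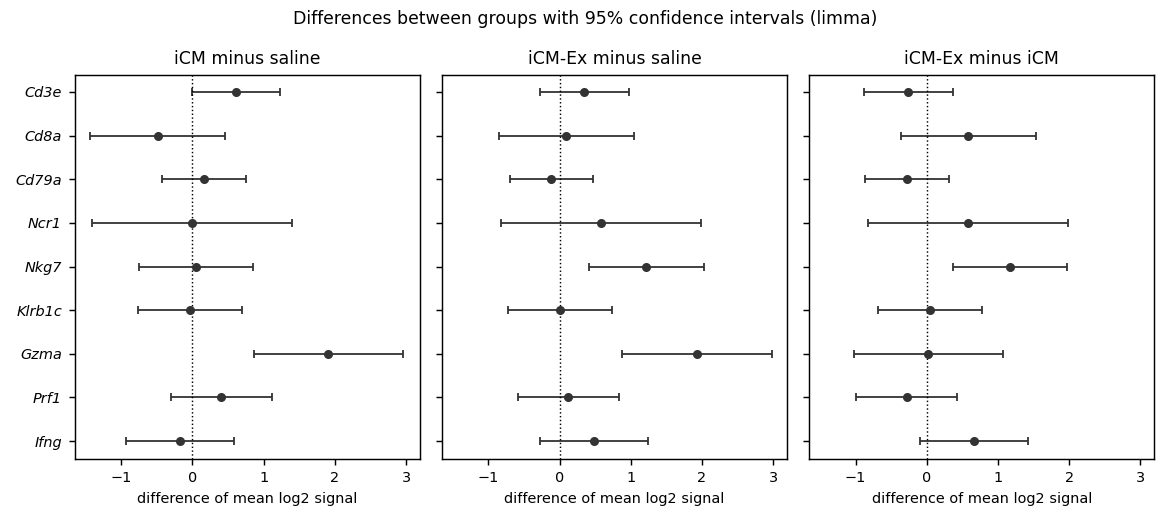
Difference in log2 signal of each member in the 3 comparisons, with 95% intervals from limma. The intervals of Gzma lie above 0 in both comparisons with saline and those of Nkg7 in both comparisons of iCM-Ex, while those of the other 7 members include 0; no member passed the adjusted threshold.

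Other genes of the same cells were read from 6 lists, of which 124 of 150 genes were measured. Of 22 T cell genes, none rose or fell in any comparison (2, 1 and 0 at an unadjusted p under 0.05, where all genes had 20.5%, 15.2% and 14.5%), and none exceeded the 95th percentile of negative controls on any array. Their median differences were 0.17, 0.13 and -0.05. Il7r and Ccr7 were the brightest by mean signal (6.34 and 5.97). They exceeded the median negative control on 8 and 9 of the 9 arrays. The 8 measured defining T cell markers averaged 4.16 to 4.35 with saline, 4.44 to 4.73 with iCM and 4.45 to 4.57 with iCM-Ex.

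Among 22 B and plasma cell genes, 1 fell in both comparisons with saline. In limma 3, 3 and 1 of the 22 had an unadjusted p under 0.05, where all genes had 20.5%, 15.2% and 14.5%. Jchain, which joins IgM or IgA units in plasma cells, gave 4.85, 4.64 and 4.36 in saline, 3.34, 3.21 and 3.18 in iCM, and 3.11, 2.84 and 3.11 in iCM-Ex. It fell by 1.37 ± 0.25 in iCM (limma adjusted p = 0.0210) and by 1.59 ± 0.25 in iCM-Ex (adjusted p = 0.0383). All 9 values lay below the median negative control. The call in iCM was lost without saline array 2 (adjusted p = 0.0818), iCM array 2 (0.0692) or iCM array 3 (0.0503), and that in iCM-Ex without any single array other than saline array 3 (up to 0.202). With single arrays left out the differences stayed at -1.50 to -1.25 with iCM and -1.72 to -1.48 with iCM-Ex. With the control gap as a covariate they were -1.48 and -1.52, and without the 3 arrays that stood apart -1.43 and -1.64. With the negative control subtracted the difference in iCM-Ex was -1.17 (adjusted p = 0.0698). Only Ebf1 and Cd72 exceeded the 95th percentile of negative controls on any array. Both are named after their values were seen, and both are also used outside B cells, Ebf1 in stromal and fat cells. The list's median differences were 0.06, -0.08 and -0.16. The 5 measured defining B cell markers lay below the median negative control on every array.

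Of 33 NK receptors and factors, none rose or fell in any comparison (4, 5 and 4 at an unadjusted p under 0.05, where all genes had 20.5%, 15.2% and 14.5%). Median differences were 0.16, 0.37 and 0.05. The brightest were Tyrobp, an adaptor also used by myeloid cells, and Nfil3, a transcription factor needed for NK development that other cells also use. They were the only members of this list above the 95th percentile of negative controls on any array. None of the 11 defining NK markers was above it. Klrk1, the activating receptor NKG2D, is named after its values were seen because its arrays separated as those of Gzma did. It gave 3.93, 4.44 and 5.10 in saline, 6.48, 6.33 and 5.56 in iCM, and 5.69, 7.00 and 5.71 in iCM-Ex. The differences from saline were 1.63 ± 0.45 (limma adjusted p = 0.0741) and 1.64 ± 0.45 (adjusted p = 0.130). Without the 3 arrays that stood apart they were 1.07 and 1.86, and with single arrays left out 1.35 to 1.93 and 1.21 to 1.95. Only with the negative control subtracted, which moved the median of all genes to 0.47, did the iCM-Ex difference pass (2.07, adjusted p = 0.0385). Klrk1 does not stand for the list, of which 20 of 33 were higher in iCM than in saline and 22 in iCM-Ex. Klre1, another NK receptor, was lower by 0.70 in iCM (limma adjusted p = 0.321). In iCM-Ex it was lower by 0.95 (adjusted p = 0.264), without overlap.

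Of 19 cytotoxic granule and death ligand genes, 1 rose. In limma 4, 2 and 4 of the 19 had an unadjusted p under 0.05, where all genes had 20.5%, 15.2% and 14.5%. Srgn, the serglycin core protein that holds granzymes in granules and is also made by myeloid and endothelial cells, gave 11.70, 12.28 and 13.35 in saline, 9.98, 10.91 and 10.86 in iCM, and 14.07, 14.62 and 13.67 in iCM-Ex. Against saline its arrays were lower in iCM (-1.86, limma adjusted p = 0.0529) and higher in iCM-Ex (1.68, adjusted p = 0.129), both without overlap. Srgn rose in iCM-Ex against iCM by 3.54 ± 0.46 (limma adjusted p = 0.0146), with no overlap between arrays. The call was lost without iCM-Ex array 2 (adjusted p = 0.0989) or iCM-Ex array 3 (0.0850), where the difference was 3.29 and 3.76. It was 3.27 with the covariate and 3.48 without the 3 arrays that stood apart. The leucocyte markers given above were also higher in iCM-Ex. The list's median differences were 0.17, 0.43 and 0.04.

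Of 16 inducers, receptor chains and targets of interferon gamma, 1 fell. In limma 5, 6 and 4 of the 16 had an unadjusted p under 0.05, where all genes had 20.5%, 15.2% and 14.5%. Arrays did not overlap for 5, 8 and 5, where all genes had 24%, 21.7% and 20.2%. Ifngr1, the ligand-binding receptor chain, gave 10.07, 9.44 and 9.68 in saline, 8.18, 7.95 and 8.51 in iCM, and 8.63, 8.81 and 7.87 in iCM-Ex. It fell in iCM against saline by 1.52 ± 0.33 (limma adjusted p = 0.0358). The call was lost without any single saline or iCM array (adjusted p 0.0503 to 0.114), while the difference ran from -1.67 to -1.35. With the covariate it was -1.29 and without the 3 arrays that stood apart -1.22. The call was just missed with quantile normalisation (0.0557), with the negative control subtracted (0.0543) and with trended variance (0.0577). Cxcl9, a chemokine induced by interferon gamma and named after its values were seen, was higher on all 6 treated arrays, with 10.69, 6.64 and 9.24 in iCM and 6.92, 11.98 and 6.30 in iCM-Ex, against 5.08, 4.62 and 5.64 in saline. Its differences of 3.75 and 3.29 had adjusted p-values of 0.156 and 0.291. Arrays of Cxcl10 (0.67 and 0.39), Cxcl11 (0.16 and 0.57), Irf1 (2.24 and 0.20) and Socs1 (-0.18 and 0.17) overlapped with saline in both comparisons. Ciita overlapped in iCM (0.58) and was higher without overlap in iCM-Ex (1.11). The list's median differences were 0.51, 0.57 and 0.24.

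Of 12 V(D)J recombination and end joining genes, none rose or fell (2, 5 and 0 at an unadjusted p under 0.05, where all genes had 20.5%, 15.2% and 14.5%), and the median differences were 0.17, 0.04 and 0.07. The brightest were Hmgb1, a chromatin protein of most cells, and Xrcc5, a DNA end-binding subunit. Prkdc, the DNA-dependent protein kinase that is mutated in the classical scid strain, was named for that role. It gave 7.23, 7.78 and 7.07 in saline, 6.38, 6.03 and 7.44 in iCM, and 5.92, 6.68 and 4.93 in iCM-Ex. Its arrays were lower in iCM-Ex than in saline without overlap (-1.52, limma adjusted p = 0.186). A signal for this gene says nothing of whether it is mutated.

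Markers of other cells that the tissue could hold were averaged in the same way. Macrophage and monocyte genes (11) averaged 8.37 to 11.56 with saline, 9.12 to 10.49 with iCM and 11.02 to 11.78 with iCM-Ex. In iCM against saline 4 of the 11 were higher (median difference -0.18). In iCM-Ex against iCM 9 were higher (median 1.74), and 6 had an unadjusted p under 0.05, where all genes had 14.5%. Cd163, a scavenger receptor, was lower there (-1.64, limma adjusted p = 0.190). It alone passed the threshold, rising in iCM against saline (2.43 ± 0.55, limma adjusted p = 0.0418). That call was lost without any single array other than iCM array 1 and iCM-Ex array 1 (adjusted p up to 0.123), and the difference was 2.59 with the covariate and 3.69 without the 3 arrays that stood apart. Mast cell genes (8) averaged 4.66 to 5.19, 4.84 to 5.38 and 5.37 to 5.82. Dendritic cell genes (9) averaged 4.11 to 4.53, 4.21 to 4.54 and 4.46 to 4.95, and innate lymphoid cell genes (5) 4.91 to 5.32, 5.27 to 5.55 and 5.05 to 5.49. Lymph node stroma genes (6) averaged 6.18 to 6.74, 4.92 to 7.28 and 7.07 to 7.94. Fabp4, a fatty acid carrier of fat cells and capillaries, rose in iCM (2.91 ± 0.61, limma adjusted p = 0.0306), with its highest value on iCM array 2. That call was lost without any saline array, iCM array 2 or 3, or iCM-Ex array 2 (adjusted p 0.0523 to 0.0988). The difference was 2.04 with the covariate and 2.75 without the 3 arrays that stood apart.

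**Figure D4:**
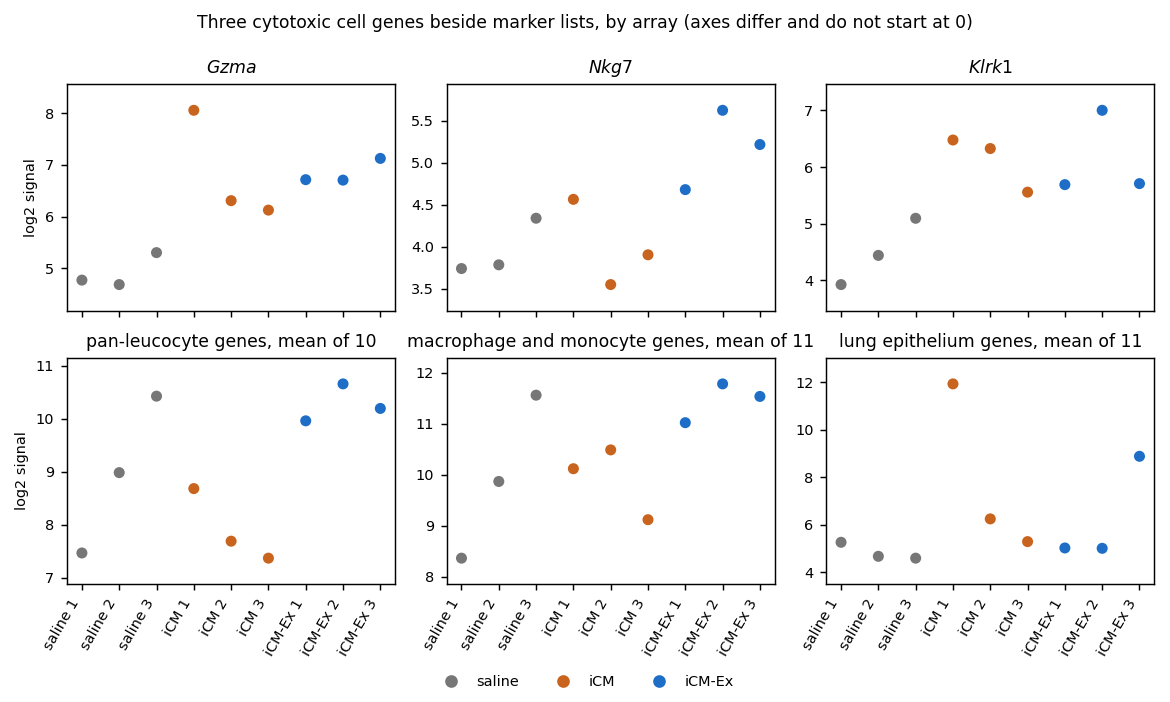
Log2 signal of Gzma, Nkg7 and Klrk1 on each of the 9 arrays (upper row) and mean log2 signal of the leucocyte, macrophage and lung epithelium marker lists on the same arrays (lower row), with axes that differ between panels. Gzma and Klrk1 are higher on all 6 treated arrays than with saline, Nkg7 is higher with iCM-Ex, and lung markers stand out on iCM array 1 and iCM-Ex array 3. Klrk1 was picked after its values were seen, and other NK genes did not share its pattern.

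Genes with profiles like a member were to be named for members above the 95th percentile of negative controls on at least 5 arrays, and no member qualified. For Gzma and Nkg7 they were sought all the same, after the values were seen, by the root mean square difference of log2 signals over 9 arrays among 17123 genes. Tceal9 (0.38), Palm (0.40) and Jun (0.40) were closest to Gzma, whose own root mean square deviation was 1.05. H2-DMa (0.20), Med29 (0.23) and Otub1 (0.24) were closest to Nkg7, whose own deviation was 0.67.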

How the data were processed

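Per the submitters' processing notes, the authors used Affymetrix Expression Console to obtain the deposited log2 signal of each probe set on each array. The sources used here give neither its version nor how background was corrected and arrays normalised. That the scale is log2 was inferred from the range of values. The table held 28846 rows: 6640 controls (5222 negative, 1324 positive) and 22206 gene rows, of which 19572 had a symbol. For 55 genes with several rows the brightest was kept, leaving 19505 genes.

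The 3 groups were fitted together with limma 3.58.1 in R 4.3.3, with Benjamini-Hochberg adjustment over 19505 genes and a threshold of 0.05. Scripts were tested on simulated data. The number of arrays limits the precision, and p-values measure the spread between arrays that the labels call biological replicates. Members and lists were chosen with earlier results of these data known. Named list genes were up to 4 past the threshold, or otherwise the 2 brightest. Exceptions are named as such. Alternatives covered normalisation, filters, variance model, row choice, replicate block, a control covariate and left-out arrays.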

Additional observations from a re-analysis of the deposited data

How the results depend on the processing

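Over the 9 members and 3 comparisons, no adjusted p passed the threshold except for Gzma in the settings given with its values. The count of members past the threshold was 0 in each comparison. It became 1 for iCM against saline with the median gene subtracted, among genes above the median (where Gzma was the 1 member tested) and with trended robust variance, and 0 to 1 with single arrays left out. For iCM-Ex against saline it became 1 with the median negative control subtracted. The count for any difference among groups became 2 with that scaling, 1 among genes above the median, and 0 to 1 with single arrays left out. Against looser limits, 19 member values exceeded the median of negative controls and 22 the 95th percentile of olfactory receptors, in place of 0.

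List genes past the threshold for iCM against saline numbered 2, and became 4 with quantile normalisation, 4 with the negative control subtracted, 7 with the median gene subtracted, 4 among genes above the median, 1 with trended variance, 1 with the control covariate, 0 without the 3 arrays that stood apart, and 0 to 3 with single arrays left out. For iCM-Ex against saline the count of 1 became 8 with the negative control subtracted (over all genes 68 became 606), 0 among genes above the median, 0 with the covariate, 0 without the 3 arrays, and 0 to 1 with single arrays left out. For iCM-Ex against iCM it went from 1 to 2 with quantile normalisation, 5 with the negative control subtracted (over all genes 208 became 809), 2 with the median gene subtracted, 2 among genes above the median, 0 with the covariate, 0 without the 3 arrays, and 0 to 3 with single arrays left out. The cause was not tested.

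Some member differences, none of them past the threshold, changed sign. Quantile normalisation gave Nkg7 -0.12 in iCM against saline, Cd8a -0.085 and Klrb1c -0.091 in iCM-Ex against saline, and Gzma -0.045 in iCM-Ex against iCM. Subtracting the negative control, which moved the median of all genes to 0.47 and 0.40 in the iCM-Ex comparisons, gave Cd79a 0.31 against saline, and Cd3e 0.18, Cd79a 0.16 and Prf1 0.16 against iCM. Subtracting the median gene gave Nkg7 -0.030 in iCM against saline and Klrb1c -0.071 in iCM-Ex against saline. The covariate gave Gzma -0.76 and Prf1 0.087 in iCM-Ex against iCM. Without the 3 arrays, Cd8a was 0.18, Cd79a -0.23 and Nkg7 -0.051 in iCM against saline, and Cd79a 0.061 and Prf1 0.11 in iCM-Ex against iCM. With single arrays left out, the iCM against saline difference ran from -0.41 to 0.60 for Ncr1, -0.23 to 0.28 for Nkg7, -0.19 to 0.18 for Klrb1c and -0.40 to 0.16 for Ifng. The iCM-Ex against saline difference ran from -0.22 to 0.22 for Klrb1c, -0.23 to 0.52 for Cd8a and -0.083 to 0.31 for Prf1. The iCM-Ex against iCM difference ran from -0.33 to 0.63 for Gzma, -0.017 to 0.96 for Ncr1 and -0.18 to 0.25 for Klrb1c.

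Same-numbered arrays did not deviate together (9 pairs, correlation -0.26 to 0.07, 0 arrays closest to their own number). No pairing by number was thus seen, but so few arrays cannot exclude one. With the replicate number as a block, 0 members passed, Gzma had adjusted p-values of 0.0909 and 0.151 against saline, and list genes past the threshold numbered 0, 0 and 1. Over all genes the counts were 338, 0 and 18, in place of 716, 68 and 208.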
